A study of Mus musculus with 6 samples.

Results

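Plekhg5, Chp2 and Dnm1 encode a guanine nucleotide exchange factor, a calcium-binding cofactor of sodium-proton exchangers and a membrane-cutting GTPase, and none of them is a customary macrophage marker. They are 3 of 50600 genes in the table, found by symbol, and all 3 were among the 12152 genes with enough counts to be tested. They were chosen by their islet against fat difference in these same counts, where all 6 libraries had already shown them far higher in fat macrophages, so their own difference is described here without a test. RNA was sequenced from resident macrophages of pancreatic islets and of epididymal white fat (EpiWAT), taken from C57BL/6J males aged 12 weeks on a chow diet. The labels name no further treatment and no genetic change, and the design text calls the tissues autologous. Cells were sorted as live cells with CD45, F4/80 and CD64 on their surface, with 3 libraries per tissue numbered 2, 4 and 6. The labels do not say whether a library holds 1 animal or several, so the spread between libraries may be partly technical.

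Plekhg5 belongs to the Dbl family of exchange factors, which load small GTPases with GTP and so control the actin cytoskeleton. It acts mainly on RhoA, has also been tied to the vesicle GTPase Rab26 in neurons, and is best known for inherited motor neuron disease. Chp2 is a calcineurin B-like protein with EF hands, the loops that bind calcium, and it serves as an obligatory partner of sodium-proton exchangers at the plasma membrane. Its relative Chp1 does this in most cells, whereas Chp2 is known from intestinal epithelium and tumours. Dnm1 is the neuronal dynamin, which assembles around the neck of a budding vesicle and cuts it from the membrane. Dnm2 does this in most cells, and Dnm3 is found in brain and testis.

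Total counts ranged from 4089980 to 6923475 in the islet and from 7450890 to 9235591 in the fat libraries. Levels are given as CPM, counts scaled to a common library size after normalisation by the trimmed mean of M values (TMM). A count of 3 in a library, used as the floor for a gene without counts, corresponds to 0.404 to 0.860 CPM in islet and 0.284 to 0.398 CPM in fat. Counting error is all that this floor covers. Adgre1 and Fcgr1, which encode F4/80 and CD64, were present in every library, at 485 to 1070 and 73.4 to 106 CPM in islet and at 459 to 583 and 53.1 to 72.8 CPM in fat. Of 11 macrophage identity genes, none was at 0 in any library.

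Plekhg5 was abundant in all fat libraries and close to absent in islet libraries. Plekhg5 (ENSMUSG00000039713.16, GRCm38 chromosome 4, 152072498 to 152115400, plus strand, protein-coding) had 2817, 1689 and 2410 counts in fat libraries 2, 4 and 6, or 266, 224 and 284 CPM. The islet libraries 2, 4 and 6 had 23, 8 and 23 counts, or 4.64, 2.29 and 3.10 CPM. The highest islet library lay far below the lowest fat library, and within fat the highest library was 1.27 times the lowest. The means were 258 ± 30.6 CPM in fat and 3.34 ± 1.19 CPM in islet (SD, n = 3 each), a fitted log2 difference of -6.25 ± 0.34 (SE), or 75.9-fold lower in islet. In such sorted pools, fewer cells with the RNA and less RNA per cell cannot be told apart.

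The table of promoter windows from RefSeq (GRCm38.p6, 250 bases before to 50 after an annotated start) holds 3 starts for Plekhg5, of which a pair lies within the same GC-rich stretch. The 2 windows printed show how unlike its starts are, and capitals mark the match to a searched motif, here the ETS and PU.1 core GGAAGT or its reverse complement.
Plekhg5 upstream start, chr4:152086613-152086912: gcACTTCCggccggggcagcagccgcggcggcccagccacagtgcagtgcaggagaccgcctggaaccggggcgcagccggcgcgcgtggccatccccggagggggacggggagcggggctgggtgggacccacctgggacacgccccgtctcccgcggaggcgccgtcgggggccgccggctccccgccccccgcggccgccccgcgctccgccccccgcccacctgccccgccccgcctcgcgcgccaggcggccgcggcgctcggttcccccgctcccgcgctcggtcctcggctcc
Plekhg5 downstream start, chr4:152096469-152096768: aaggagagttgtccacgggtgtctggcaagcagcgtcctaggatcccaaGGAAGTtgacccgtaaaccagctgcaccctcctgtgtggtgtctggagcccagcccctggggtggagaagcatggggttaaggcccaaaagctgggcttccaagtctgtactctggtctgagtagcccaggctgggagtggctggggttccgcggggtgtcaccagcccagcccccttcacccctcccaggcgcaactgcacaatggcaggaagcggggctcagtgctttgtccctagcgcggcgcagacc
The upstream window was 83.7% G or C with 47 CpG pairs, and the downstream window 63.0% with 10, against medians of 52.7% and 7 over 32851 RefSeq windows of this length. The gene model of GENCODE M21 begins further upstream, at 152072498, outside these windows, and counts per gene do not show which start the macrophages used. GGAAGT was matched once in each window and occurs in 23.8% of all windows, on either strand.

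Chp2 had no counts at all in islet macrophages. Chp2 (ENSMUSG00000030865.4, chromosome 7, 122219496 to 122222824, plus strand, protein-coding) had 1384, 1281 and 1121 counts in fat libraries 2, 4 and 6, or 131, 170 and 132 CPM, and 0 counts in each islet library. Fat library 4 held the highest level, 1.30 times the lowest, and the fat mean was 144 ± 22.3 CPM (SD, n = 3). With the islet libraries set at 3 counts each, Chp2 was at least 232-fold lower in islet. Over all 12152 tested genes, 234 had no islet counts. Of 1055 tested genes with a mean fat level at or above that of Chp2, 4 had no islet counts. They were Chp2 itself, which was chosen on this difference, the lectin gene Cd209g, the neurturin receptor gene Gfra2 and the resistin-like gene Retnla.

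The single Chp2 window is printed to set beside those of Plekhg5, and it holds no match to any of the motifs searched.
Chp2, chr7:122219246-122219545: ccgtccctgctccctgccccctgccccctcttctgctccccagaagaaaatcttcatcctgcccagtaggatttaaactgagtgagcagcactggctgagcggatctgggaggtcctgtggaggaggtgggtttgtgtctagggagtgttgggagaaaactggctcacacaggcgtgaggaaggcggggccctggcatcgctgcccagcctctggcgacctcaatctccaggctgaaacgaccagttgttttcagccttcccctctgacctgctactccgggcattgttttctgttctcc
It was 58.7% G or C with 8 CpG pairs, and 51.4% of windows held fewer such pairs.

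Dnm1 was also without counts in islet macrophages. Dnm1 (ENSMUSG00000026825.17, chromosome 2, 32308471 to 32353338, minus strand, protein-coding) had 1001, 615 and 830 counts in fat libraries 2, 4 and 6, or 94.7, 81.6 and 97.6 CPM, against 0 counts in each islet library. The fat libraries lay within 1.20 times of each other, with a mean of 91.3 ± 8.53 CPM (SD, n = 3). Dnm1 was at least 147-fold lower in islet against the same floor. Of 1782 tested genes at or above its mean fat level, 6 had no islet counts, the 4 named for Chp2 plus Dnm1 and the lectin gene Cd209b. Dnm1 is counted here although it too was chosen on this difference.

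The Dnm1 window is printed because it lies within the gene body of Ciz1, a neighbour on the opposite strand whose values are given with the neighbours. It held no match to any searched motif.
Dnm1, chr2:32353280-32353579, minus strand: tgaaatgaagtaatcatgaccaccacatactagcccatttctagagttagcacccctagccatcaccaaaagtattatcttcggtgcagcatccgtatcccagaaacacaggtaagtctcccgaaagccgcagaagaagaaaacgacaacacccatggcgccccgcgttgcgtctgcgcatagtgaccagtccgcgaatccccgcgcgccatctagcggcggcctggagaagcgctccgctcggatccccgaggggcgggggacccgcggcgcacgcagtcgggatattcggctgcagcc
It was 59.0% G or C with 28 CpG pairs, more than 85.8% of windows. Other motifs were searched on both strands, and none was found in any window of the 3 genes. The AP-1 motif TGANTCA occurs in 7.81% of all windows. A MAF half-site, TGCTGA, occurs in 19.5%. The C/EBP motif TTGCNNAA is in 10.8%, and GGGTGTG, bound by Kruppel-like factors, in 7.95%. An E-box, CACGTG, is in 7.15% and the TATA box TATAAA in 13.6%. A missing match says only that those letters are not in these 300 bases.

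**Figure D1:**
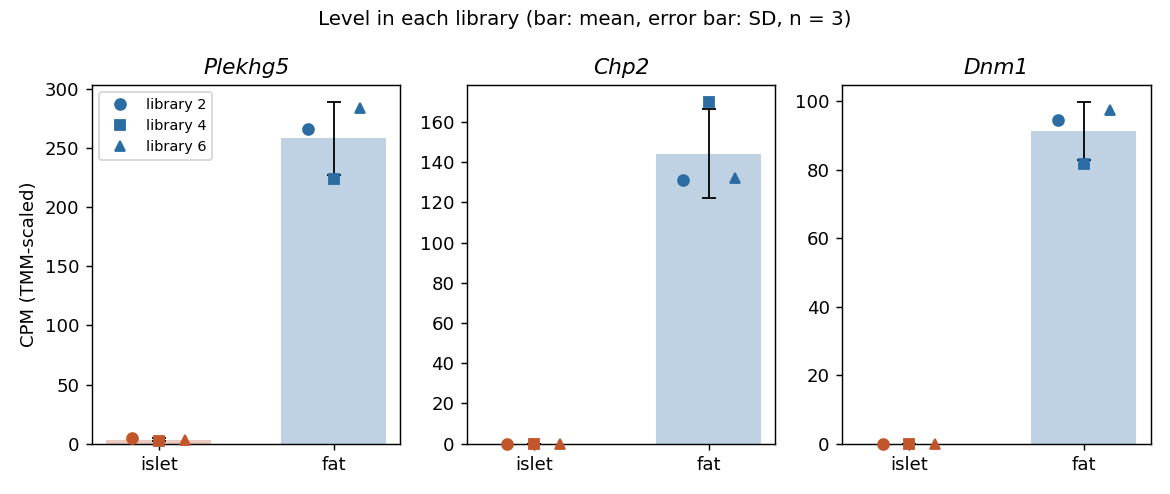
CPM (TMM-scaled) of Plekhg5, Chp2 and Dnm1 in each library, with islet libraries in orange and fat libraries in blue, bars for the mean and error bars for the SD (n = 3). Fat libraries lie between 224 and 284 CPM for Plekhg5, 131 and 170 CPM for Chp2 and 81.6 and 97.6 CPM for Dnm1, while Chp2 and Dnm1 stand at 0 in all islet libraries.

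The spread of the 3 genes between fat libraries was ordinary for genes of their level. Their SD was 11.9% of the mean for Plekhg5, 15.5% for Chp2 and 9.34% for Dnm1, against a median of 12.1% over the 3146 tested genes with a mean of at least 50 CPM in fat. Per kilobase of exonic length, a scale that allows genes to be compared, the mean fat level was 90.0 CPM per kb for Chp2, 52.2 for Plekhg5 and 17.4 for Dnm1. Chp2 thus ranked 327th, Plekhg5 574th and Dnm1 1912th of 12152 genes in fat macrophages. The ranges of the 3 genes did not overlap on this scale, with 81.6 to 106 for Chp2, 45.3 to 57.3 for Plekhg5 and 15.5 to 18.6 for Dnm1.

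In the dynamin family, Dnm2 made up nearly all of the islet level and most of the fat level. Dnm2, the dynamin of most cells, stood at 149, 171 and 188 CPM in islet and at 213, 218 and 239 CPM in fat. All fat libraries were above all islet libraries, but the log2 difference of -0.40 ± 0.22 (SE) did not pass (edgeR quasi-likelihood adjusted p = 0.259, Benjamini-Hochberg). Dnm1 accounted for 31.0%, 27.5% and 29.3% of the summed level per kb of Dnm1, Dnm2 and Dnm3 in fat libraries 2, 4 and 6. That sum was 59.4 ± 3.70 CPM per kb in fat and 31.8 ± 3.71 in islet (SD, n = 3). Dnm3 had too few counts to be tested (35, 7 and 6 counts in fat, 1, 0 and 13 in islet), and an antisense gene, Dnm3os, shares its locus. Dnm1l, which divides mitochondria and peroxisomes, had a log2 difference of -0.14 ± 0.23 (adjusted p = 0.724).

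The leading member of the CHP family was Chp2 in fat and Chp1 in islet. Chp1, the form found in most cells, had 58.1, 47.0 and 31.0 CPM in islet and 38.9, 30 and 45.1 CPM in fat, which overlap. Its log2 difference was 0.25 ± 0.30 (SE, edgeR adjusted p = 0.614). Chp2 made up 87.9%, 92.5% and 86.5% of the summed level per kb of Chp1, Chp2 and Tesc in fat libraries 2, 4 and 6, and Chp1 made up 93.7% to 100% of it in the islet libraries. The sum was 101 ± 11.9 CPM per kb in fat and 13.2 ± 3.58 in islet. Tesc, also called tescalcin and the third member, had 7 counts in islet library 6, 3 in fat library 2 and none elsewhere, too few to be tested.

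In the Plekhg family, Plekhg5 was the leading member in fat and a minor one in islet. It made up 64.1%, 70.6% and 72.5% of the summed level per kb of the 6 genes in fat libraries 2, 4 and 6 and 9.38%, 6.06% and 6.84% in the islet libraries. The sum was 75.8 ± 10.3 CPM per kb in fat and 8.93 ± 1.19 in islet. Plekhg3 was lower in islet too, at 21.2, 23.2 and 21 CPM against 118, 103 and 114 CPM (log2 -2.36 ± 0.22, SE, edgeR adjusted p = 2.56e-04). Plekhg1 was lower by 1.39 ± 0.30 (adjusted p = 0.0136), but missed the threshold without fat replicate 2 or 6 (adjusted p = 0.0820 and 0.0545).

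Plekhg2, an exchange factor regulated by G protein subunits, stood at 29.2, 8.31 and 38.4 CPM in islet and 109, 42.6 and 58.2 CPM in fat. Its log2 difference of -1.45 ± 0.54 did not pass (edgeR adjusted p = 0.0977), although it passed with replicate numbers blocked, in DESeq2, without a filter and without islet replicate 6 (adjusted p = 0.0222, 0.0356, 1.82e-04 and 0.0292). Plekhg4 went the other way, with 37, 46 and 3 counts in islet libraries 2, 4 and 6 and 0, 0 and 1 in the fat libraries. It did not pass the filter on low counts, and its ratio of islet to fat was 144 with an exact 95% counting interval of 25.2 to 5760. Islet libraries 2 and 4 carried the Plekhg4 counts, so the ratio rests on them. Plekhg6 had 12 counts in fat, 11 of them in library 4, and none in islet.

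**Figure D2:**
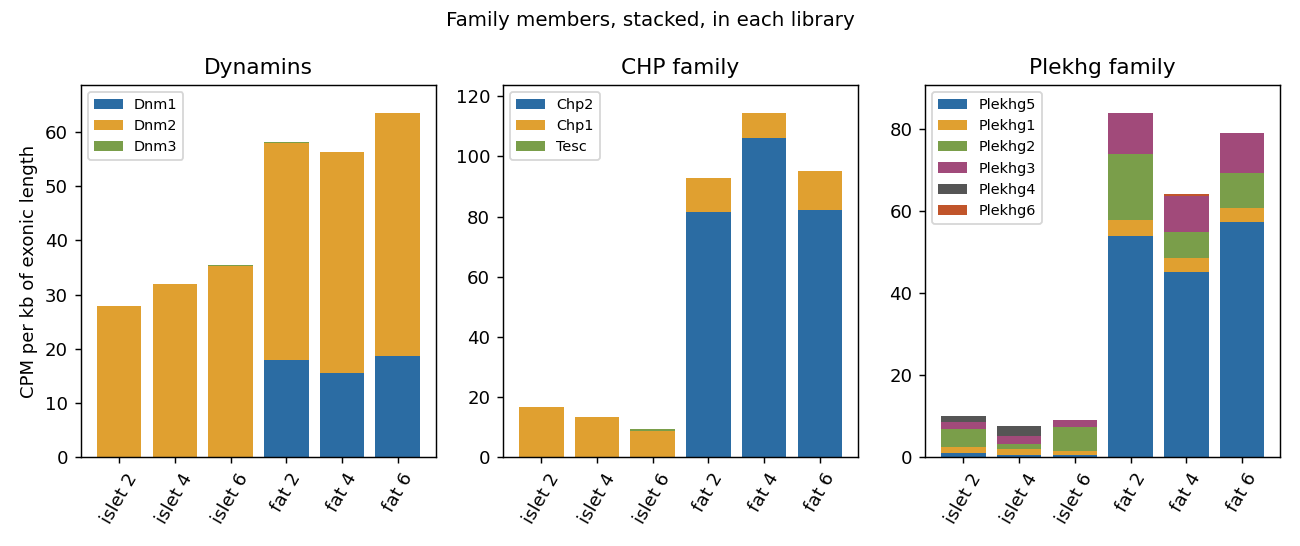
Level per kb of exonic length (CPM per kb) of each family member, stacked, in every islet and fat library, with the dynamins on the left, the CHP family in the middle and the Plekhg family on the right. Blue marks Dnm1, Chp2 and Plekhg5, which fill 27.5% to 31.0%, 86.5% to 92.5% and 64.1% to 72.5% of the fat bars.

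A list of 60 genes of vesicle scission and coated-pit endocytosis put Dnm1 beside its partners, and 49 of them besides Dnm1 were tested. Of these, 16 were lower in islet, 3 higher and 30 did not pass, where 10.5% of all 12152 genes were called lower and 8.97% higher. The list's share of lower calls was 32.7%, and its median log2 difference was -0.40 (0.00614 over all genes). The counts rest on few libraries: 7 were lower without islet replicate 2, and 7, 6 and 8 without fat replicates 2, 4 and 6, while 5 were higher without islet replicate 4, 1 without fat replicate 2 or 4 and 6 without islet libraries 2 and 4, which is a setting chosen after the data were seen.

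Of the adaptor complex AP-2, which links cargo to clathrin, Ap2a2 showed the largest of the differences. Ap2a2 had 58.5, 80.0 and 71.3 CPM in islet and 650, 681 and 771 CPM in fat, a log2 difference of -3.33 ± 0.27 (SE, edgeR adjusted p = 1.39e-04). Its alternative subunit Ap2a1 had a log2 difference of -0.26 ± 0.35 and Ap2b1 one of -0.17 ± 0.22 (adjusted p = 0.648 and 0.647). Ap2m1 and Ap2s1, named after their values were seen, were lower by 1.11 ± 0.27 and 1.28 ± 0.33 (adjusted p = 0.0210 and 0.0258) and lost their calls when islet replicate 2, fat replicate 4 or fat replicate 6 was dropped, with adjusted p between 0.0670 and 0.113. Cltc, the clathrin heavy chain, fell by 0.99 ± 0.27 (adjusted p = 0.0334; 0.0736 with replicate numbers blocked, and 0.0619 to 0.120 when any library but islet replicate 6 was dropped). Dab2, a cargo adaptor that also binds clathrin, was 4.90-fold lower (log2 -2.29 ± 0.27, adjusted p = 7.31e-04), and Eps15, a scaffold of the pit, 3.0-fold lower (log2 -1.59 ± 0.27, adjusted p = 0.00399).

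Itsn1, a scaffold that binds dynamin and is itself an exchange factor for Cdc42, was also named after its values were seen. Its islet levels were 14.9, 7.17 and 79.1 CPM and its fat levels 492, 482 and 490 CPM (log2 -3.83 ± 0.78, adjusted p = 0.0100). Islet library 6 was the high one, and the log2 difference was -5.44 without it. Snx18, a sorting nexin that recruits dynamin, and Synj2, a phosphoinositide phosphatase of vesicle uncoating, rose in islet. Snx18 was 5.81-fold higher, at 424, 364 and 140 CPM against 51.2 to 55.6 CPM (log2 2.54 ± 0.40, adjusted p = 0.00316; 1.31 without islet libraries 2 and 4). Synj2 missed the threshold without fat replicate 2 or 4 (adjusted p = 0.0526 and 0.0501). The dynamin partners best known from synapses, Amph, Sh3gl2, Dnajc6 and Snap91, had too few counts to be tested.

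In a list of 32 genes of the CHP family, sodium-proton exchangers, calcineurin and NFAT, 24 besides Chp2 were tested, of which 3 were higher in islet (12.5%), 4 lower (16.7%) and 17 did not pass. Over all tested genes 8.97% were higher and 10.5% lower, so these few calls lie near the background. The median log2 difference was 0.23. None was called higher in edgeR without fat replicate 4 or 6, where 3 and 3 had an unadjusted p under the threshold of 0.05. Slc9a2 and Slc9a3, the exchangers of epithelia, had 0 counts in every library.

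Slc9a3r2, a scaffold of epithelial exchangers, had 3.43, 0.573 and 2.16 CPM in islet and 40.0, 37.4 and 67.5 CPM in fat, 22.5-fold lower in islet (log2 -4.49 ± 0.53, SE, edgeR adjusted p = 7.95e-04). Nfatc2, a transcription factor that calcineurin activates, and Slc9a9, an exchanger of endosomes, fell with log2 differences of -2.32 ± 0.36 and -1.84 ± 0.33 (-2.75 without islet libraries 2 and 4; adjusted p = 0.00277 and 0.00577). The calcineurin subunits Ppp3ca, Ppp3cb and Ppp3r1 had log2 differences of -0.69 ± 0.32, -0.19 ± 0.25 and 0.38 ± 0.28 (adjusted p = 0.172, 0.659 and 0.393). Rcan1, a calcineurin inhibitor, was 3.52-fold higher in islet (log2 1.82 ± 0.41, adjusted p = 0.0154) but missed the threshold without fat replicate 4 or 6 (0.0824 and 0.0795) and without islet libraries 2 and 4 (0.0971). Slc9a7, an exchanger of the Golgi, rose by 2.06 ± 0.47 (adjusted p = 0.0162; 0.0915 and 0.0790 without fat replicates 4 and 6). Slc9a5 rose by 2.45 ± 0.72 (adjusted p = 0.0448) but had 0.0873 with replicate numbers blocked, 0.0612 in limma voom, 0.176 without islet replicate 2 and 0.116, 0.166 and 0.154 without fat replicates 2, 4 and 6.

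Exchange factors, the class of Plekhg5, differed in both directions. Of 64 listed, 49 besides Plekhg5 were tested, and 15 were lower in islet (30.6%), 6 higher (12.2%) and 28 did not pass, with a median log2 difference of -0.75. Over all tested genes 10.5% were lower and 8.97% higher, so the share of higher calls lies near the background. Lower calls numbered 24 without islet replicate 6 and also without islet libraries 2 and 4, and 6 and 8 without fat replicates 2 and 6. Abr, which both activates and inactivates small GTPases, was 13.8-fold higher in islet, at 448, 472 and 783 CPM against 33.0 to 46.9 CPM (log2 3.79 ± 0.34, SE, edgeR adjusted p = 2.10e-04). Spata13, an exchange factor for Rac1 and Cdc42, was 28.4-fold higher (log2 4.83 ± 0.45; 5.47 without fat replicate 2) and Vav1, the haematopoietic exchange factor, 4.59-fold higher (log2 2.20 ± 0.28). Tiam1, an activator of Rac1, stood at 2.22, 3.44 and 8.22 CPM in islet and at 72.5, 64.0 and 108 CPM in fat, 17.0-fold lower in islet (log2 -4.08 ± 0.49, adjusted p = 8.91e-04; -4.88 without islet replicate 6). Net1, a RhoA exchange factor like Plekhg5, fell by 2.74 ± 0.33 (adjusted p = 7.95e-04).

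Rhoa, the GTPase on which Plekhg5 mainly acts, was abundant in both tissues. It stood at 527, 594 and 365 CPM in islet and 419, 550 and 532 CPM in fat (log2 -0.01 ± 0.28, SE, edgeR adjusted p = 0.978). Its effector kinase Rock1 had a log2 difference of 0.06 ± 0.23 (adjusted p = 0.884). Rab26 had 1 count in all 6 libraries, so the substrate known from neurons was not detectable at this depth.

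**Figure D3:**
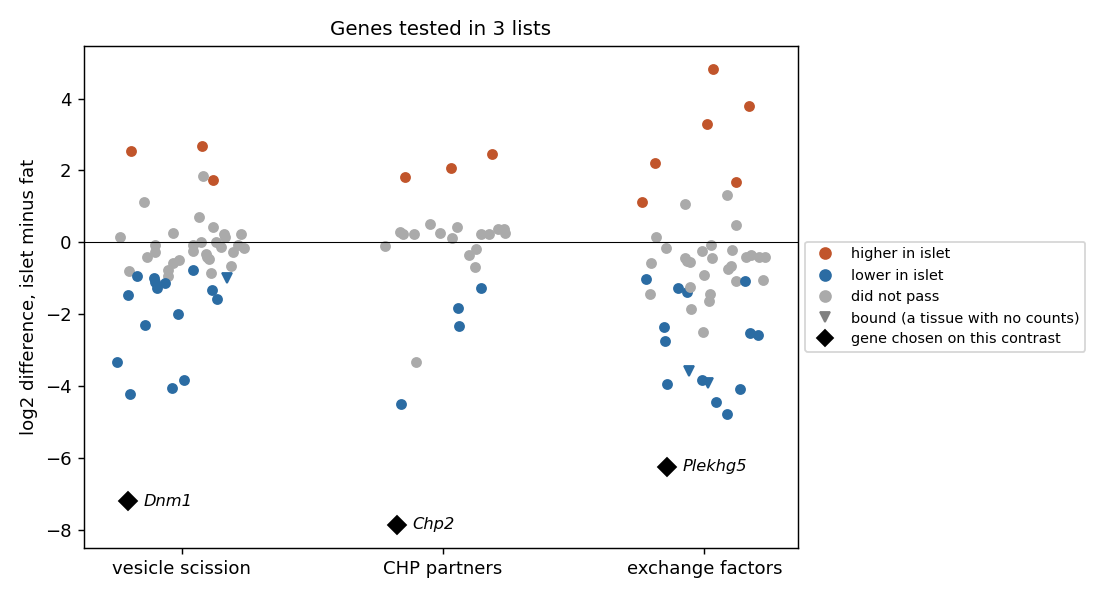
Log2 difference, islet minus fat, of every tested gene in the 3 lists, with calls in colour, triangles for bounds of genes without counts in a tissue, and black diamonds for Dnm1, Chp2 (both bounds) and Plekhg5. Calls lie on both sides of 0, with 16 lower and 3 higher in vesicle scission, 4 and 3 among CHP partners and 15 and 6 among exchange factors, the 3 chosen genes not counted.

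The 3 genes lie on different chromosomes. Of 44 genes within 100 kb of them 23 were tested, of which 1 was lower in islet, 3 higher and 19 did not pass, against 19.4% called in either direction over all genes, a share near that of the neighbours. The exception on the lower side was Tnfrsf25, a death receptor of the TNF receptor family, which starts 534 bp past the end of Plekhg5 on the same strand (chromosome 4, 152115934 to 152120119). It had 203, 110 and 80 counts in fat libraries 2, 4 and 6, or 19.2, 14.6 and 9.41 CPM, and none in islet, at least 23-fold lower (edgeR adjusted p = 0.00124). No exon of Tnfrsf25 overlaps one of Plekhg5. Tnfrsf25 was highest in fat library 2 and Plekhg5 in fat library 6. Whether reads past the end of Plekhg5 reached Tnfrsf25 was not tested.

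Espn, an actin bundling gene 4931 bp past the end of Plekhg5 on the opposite strand, stood at 0, 23 and 4 counts in islet and 134, 75 and 104 in fat (log2 -2.41 ± 1.10, SE, edgeR adjusted p = 0.167). It passed in limma voom and without a filter (adjusted p = 0.0231 and 0.00194), and without islet replicate 4 (adjusted p = 0.00437, log2 -5.17) or islet libraries 2 and 4 (6.74e-05). On the other side, Nol9 had a log2 difference of -0.02 ± 0.30 (adjusted p = 0.970). Around Dnm1, Golga2 ends 550 bp away with a log2 difference of -0.03 ± 0.24 (adjusted p = 0.946). Ciz1, whose gene body overlaps the start of Dnm1 on the opposite strand without shared exons, had -0.20 ± 0.22 (adjusted p = 0.586). Mir199b, a microRNA gene within Dnm1 on the opposite strand, had no counts in any library.

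Prkcb, the protein kinase C beta gene 65927 bp from Chp2, was higher in islet, at 317 against 112 CPM (log2 1.5 ± 0.28, adjusted p = 0.00651), and had 0.0567 without fat replicate 4 and a log2 difference of 0.90 without islet libraries 2 and 4. Dctn5, on the other side of Chp2, had -0.49 ± 0.28 (adjusted p = 0.273) and a log2 difference of -1.01 without islet libraries 2 and 4. Slc25a25, a mitochondrial carrier near Dnm1, rose by 2.42 ± 0.56 (adjusted p = 0.0178), but by 0.44 without islet libraries 2 and 4 (adjusted p = 0.322), and its adjusted p was 0.0646 when islet replicate 2 was dropped and 0.0670 to 0.0893 when a fat library was. Acot7, near Plekhg5, rose by 2.14 ± 0.62 (adjusted p = 0.0407), with 0.0571 to 0.153 when islet replicate 2 or 6 or a fat library was dropped (log2 1.42 when it was islet replicate 6).

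**Figure D4:**
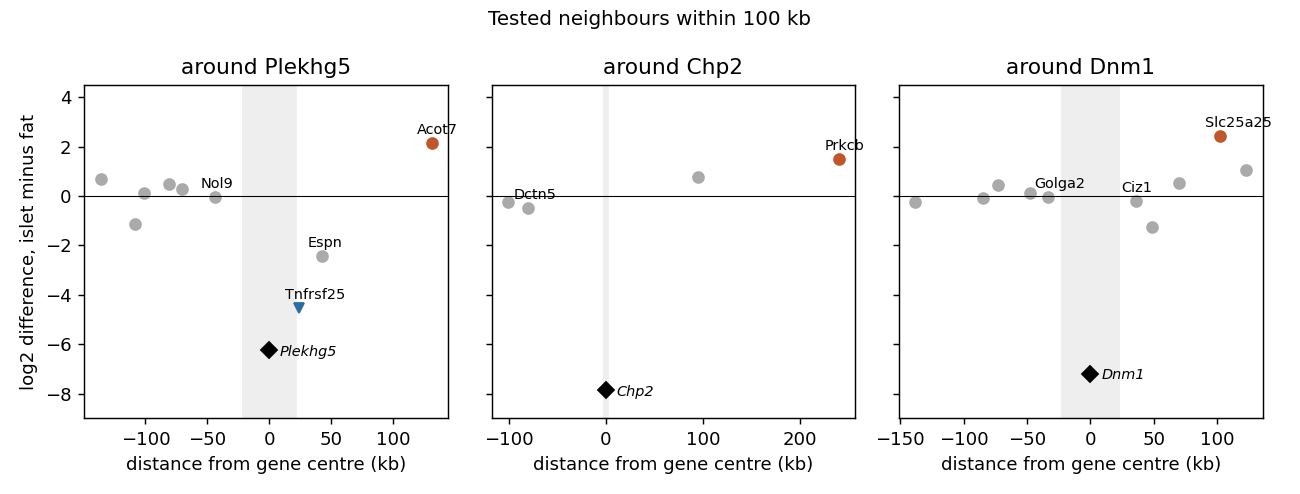
Log2 difference, islet minus fat, of tested genes within 100 kb of Plekhg5, Chp2 and Dnm1, by distance of their centre from the gene's centre in kb, with the gene's body shaded, calls in orange (higher) and blue (lower), and triangles for bounds. Tnfrsf25, beside Plekhg5, is the 1 neighbour of 23 called lower in islet.

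By the pattern over all 6 libraries, Chp2 and Dnm1 stood near lectin genes of perivascular macrophages and near each other. Likeness was the Euclidean distance of log2(CPM + 0.5), centred on each gene's mean, to 11074 other protein-coding genes. The 5 nearest to Chp2 were Cd209g (0.280), Cd209b (0.384), Gfra2 (0.659), the eosinophil chemokine gene Ccl24 (0.874) and Dnm1 (0.938). The 5 nearest to Dnm1 were Cd209d (0.410), Cd209b (0.776), the transcription regulator gene Aff3 (0.818), Gfra2 (0.895) and Chp2 (0.938). Among genes without islet counts, this distance mostly compares their fat levels with the pseudocount, so it ranks genes of like abundance first.

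Plekhg5, with its few islet counts, was nearest to Pdk4, a kinase that restrains pyruvate oxidation (0.392), followed by Dpysl3, Mucl1, Fam65b and Adamtsl5 (0.753 to 0.871). Pdk4 stood at 52.5, 41.4 and 49.1 CPM in fat libraries 2, 4 and 6 and at 0.403, 0 and 0 CPM in the islet libraries. Pdk4 had 2 islet counts, Fam65b 5, and Dpysl3, Mucl1 and Adamtsl5 none, so these distances to Plekhg5 depend on the pseudocount too. They do not show a like fold, since the fitted fold was 328 for Pdk4 and 75.9 for Plekhg5. Dnm1 ranked 52nd and Chp2 149th in likeness to Plekhg5. The islet level of Plekhg5 was 1.30% of its fat level (1.80%, 0.889% and 1.20% in libraries 2, 4 and 6). In a list of 16 perivascular macrophage genes the median was 0.0903%, 5 had no islet counts, and only Mrc1, the mannose receptor, was above Plekhg5, at 2.50%. That list was compiled with results of these counts known, and all 16 of its genes were lower in islet.

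RNA of other fat tissue cells was present in the fat libraries, and for 5 marker lists of adipose, stromal and vascular cells its order between libraries was not that of the 3 genes. Adipocyte markers summed to 240, 204 and 53.4 CPM in fat libraries 2, 4 and 6, fibroblast markers to 390, 324 and 92.7 CPM and endothelial markers to 205, 87.6 and 38.7 CPM. The highest of these were Fabp4 and Cfd, Col3a1 and Dcn, and Cdh5 and Pecam1. Pericyte and smooth muscle markers summed to 228, 64.7 and 33.2 CPM and mesothelial markers to 20.8, 7.83 and 3.06 CPM. Each of these 5 sums was highest in fat library 2 and lowest in fat library 6, whereas Plekhg5 and Dnm1 were highest in library 6 and Chp2 in library 4. Other lists did share an order with them. Schwann cell markers (32.5, 26.0 and 37.3 CPM in fat libraries 2, 4 and 6) and T and NK cell markers (3.40, 1.59 and 7.29 CPM) were highest in library 6 and lowest in library 4, as Plekhg5 and Dnm1 were. Neuronal (4.35, 5.57 and 12.2 CPM) and B cell sums (167, 222 and 242 CPM) were also highest in library 6. The part of these cells in the levels of the 3 genes was not tested. In fat library 6, where the first 5 sums were lowest, Plekhg5 stood at 284, Chp2 at 132 and Dnm1 at 97.6 CPM.

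In the islet libraries the adipocyte, fibroblast and mesothelial sums stayed between 0 and 2.58 CPM. Endothelial sums there were 14 to 26.4 CPM and pericyte sums 7.86 to 18.5 CPM. Neuronal markers, given because Dnm1 and Plekhg5 are best known from neurons, summed to 8.47, 1.15 and 22.5 CPM in islet. Of the 10, 5 (Snap25, Syt1, Nefl, Nefm and Th) had no counts in any fat library. Syn1 was the highest of them in fat, at 2.08, 4.51 and 11.5 CPM in fat libraries 2, 4 and 6. Like Plekhg5 and Dnm1 it was highest in fat library 6, and in islet it had 3.83, 0 and 2.16 CPM. Elavl4 had 14, 8 and 4 counts in fat libraries 2, 4 and 6. Of the 8 Schwann cell markers, Sox10 and Gfra3 had none in fat, and Mbp made up most of the list's sum. Epithelial markers, given because Chp2 is known from epithelium, summed to 1.88 to 3.69 CPM in fat and 45.3 to 105 CPM in islet. Islet endocrine genes summed to 9320, 6100 and 3400 CPM in islet libraries 2, 4 and 6.

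Some list genes did follow the order of the tissue markers in fat. Cav1 and Ehd2, of caveolae, stood at 38.6, 16.7 and 7.29 CPM and at 40.4, 30 and 9.06 CPM in fat libraries 2, 4 and 6, as Tnfrsf25 did, and the exchange factor genes Prex2 (18.3, 6.24 and 2.59 CPM) and Fgd5 (14, 5.57 and 2.35 CPM) as well. These genes were picked after their values were seen, and the part of other cells in their difference was not tested. Of the 16 lower genes of vesicle scission 3 had this order, as did 4 of the 15 lower exchange factors. Over all 1271 genes lower in islet the share was 27.7%. Ap2a2, Dab2, Itsn1, Tiam1, Net1 and Plekhg3 did not have it.

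**Figure D5:**
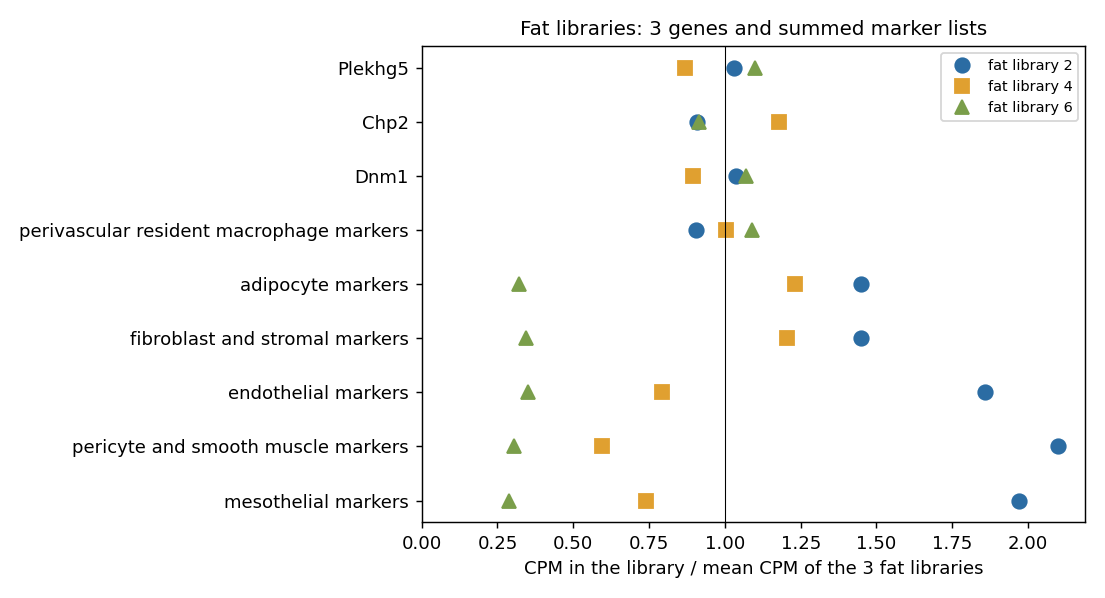
Level in each fat library divided by the mean of the 3 fat libraries, for Plekhg5, Chp2, Dnm1 and for the summed CPM of marker lists, with a symbol per library. The 5 lists of other tissue cells run from library 6 (lowest) to library 2 (highest), while Plekhg5 and Dnm1 are highest in library 6 and Chp2 in library 4.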

How the data were processed

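The authors deposited unnormalised counts, integers for 50600 genes in 6 libraries, and every column belonged to a sample. Per the labels, 10 ng of total RNA went into stranded total RNA libraries for low input. The submitters' processing notes name STAR, featureCounts and Subread 1.6.4 and the GRCm38 build. The annotation used, and whether counting took strand into account, were not given in the sources used here. Identifiers were matched without version to GENCODE M21 (99.56%), which gave coordinates and exonic lengths.

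Counts were fitted in R 4.3.3 with edgeR 4.0.16 (filterByExpr by tissue, TMM, robust quasi-likelihood test, tissue as the only term), islet minus fat, with Benjamini-Hochberg adjustment over 12152 genes and a threshold of 0.05. The fit was tested on simulated data. For a gene empty in a tissue, the fold is a bound against 3 counts per library, and genes with 1 to 3 as ratios with exact 95% intervals, which cover counting error only. Alternatives were RLE factors, DESeq2 1.42.0, limma voom 3.58.1, no filter, 1 CPM in every library of a tissue, no ribosomal RNA genes, the replicate number as a block and each library left out. The design text calls the tissues autologous, so in the block equal numbers were taken as the same animal or pool of animals. The main fit leaves this pairing out. Deviations from the tissue mean correlated, across genes, at 0.046, 0.063 and -0.00759 for numbers 2, 4 and 6, so the counts themselves do not show this pairing.

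The 3 genes and all lists were chosen with earlier results of these data known. Named genes were the 3 genes, their paralogues, the 3 smallest adjusted p values per direction in each list, the 5 nearest by pattern, the neighbours and the 2 highest genes of marker lists described. Functionally central genes that did not pass, such as Rhoa and the AP-2 and calcineurin subunits, were named for their role. Of 335 list genes, Cavin1 was not found by symbol. Some listed genes and 1 further list are not reported here.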

Additional observations from a re-analysis of the deposited data

How the results depend on the processing

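The log2 difference of Plekhg5 stayed between -6.54 and -6.08 under all alternatives and was -6.29 with the replicate block. The bounds of Chp2 and Dnm1 (log2 -7.86 and -7.20) follow the depth of the islet libraries through the floor. They ran from -8.16 to -7.63 and from -7.50 to -6.97 with 1 library left out, and were -8.56 and -7.90 without islet libraries 2 and 4, which was tried once the values were known. Counts of genes higher and lower in islet (1090 and 1271) ranged from 466 to 1649 and from 593 to 2022 with 1 library left out, and were 2064 and 2916 without islet libraries 2 and 4. With 1 library left out, vesicle scission genes ranged from 1 to 5 higher and from 6 to 19 lower, CHP partners from 0 to 3 higher and from 4 to 5 lower, and exchange factors from 5 to 7 higher and from 6 to 24 lower. Without islet libraries 2 and 4, 6 vesicle scission genes were higher and 24 exchange factors lower. That setting leaves a lone islet library, whose spread is taken from fat. The replicate block changed the calls of Plekhg2, Slc9a5 and Cltc (adjusted p = 0.0736) among the genes named. With the block, 884 genes were higher and 1103 lower. Why these counts moved was not tested beyond the number of samples and genes in each fit. Depth limits Dnm3, Tesc, Plekhg6 and Rab26, whose few counts show neither presence nor absence.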
